A study of Caenorhabditis elegans with 6 samples.

Results

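The genes described here set the ser-3;ser-6 strain apart from the other strains of this Caenorhabditis elegans array study. They are the 8 genes bcf-1, gfi-1, lrk-1, mop-25.3, haf-6, haao-1, fip-2 and dyf-3. They were chosen because their signals on both arrays of that strain lay far from those of the other strains, so their strain differences are given as a description, without a test. All 8 were found by gene symbol in the platform annotation, through 10 probe sets, among 17118 named genes. The mean over the 6 arrays reached the filter on low signals for each of the 8, and 10251 genes in all passed it.

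RNA came from whole young adults of 3 strains. N2 was the wild type, daf-16(mu86) lacked the FOXO transcription factor DAF-16, and ser-3(ok2007);ser-6(tm2146), called the double mutant here, carried mutations in both octopamine receptor genes; all had the N2 background. After 3 days of growth, animals were moved for 2 days to plates that held no octopamine or 20 mg/mL of it, and the labels give their age once as day 4 of adulthood and once as 5 days. Each of the 6 combinations was 1 array, so a difference between arrays has no replicate check, and the number of arrays limits the precision. The labels do not say whether arrays came from separate cultures. The p-values below therefore measure only the spread between these arrays.

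Octopamine is the invertebrate counterpart of noradrenaline, and SER-3 and SER-6 are G protein-coupled receptors through which it acts on neurons and other tissues. The 8 genes belong to no common pathway. BCF-1 is named as a bacterial colonization factor of the gut, and GFI-1 for its interaction with the protein GEI-4. LRK-1 is the worm relative of the Parkinson disease kinase LRRK2 and takes part in sorting synaptic vesicle proteins to axons. MOP-25.3 belongs to the MO25 family of kinase scaffolds, and HAF-6 is an ABC transporter needed for efficient RNA interference. HAAO-1 is the dioxygenase of hydroxyanthranilic acid in the kynurenine pathway, which breaks down tryptophan. FIP-2 belongs to a family of small proteins named for induction by fungal infection, and DYF-3 is needed for intraflagellar transport, the traffic that builds sensory cilia.

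The targeted genes were read first. The ser-3 probe set was dim, with signals (untreated, then treated) of 22.3 and 25.7 for N2, 22.4 and 30.8 for daf-16, and 18.2 and 17.7 for the double mutant. Both double mutant arrays were the lowest, and whether this probe set lies in the deleted part is not stated in the labels, so it checks little about the label. The gene ser-6 had no probe set of its own in the annotation. The most affected daf-16 probe set had signals of 47.7 and 43.4 for N2, 7.26 and 6.31 for daf-16, and 31.5 and 46.7 for the double mutant. The other daf-16 probe sets were less affected, with log2 ratios of daf-16 to N2 from -1.58 to -0.37. Array medians ranged from 23.77 to 25.96, and correlations between arrays over probe sets from 0.982 to 0.997. Of the fixed marker lists of a whole animal, all 7 measured intestine markers, all 6 body wall muscle markers and all 8 germline and oocyte markers passed the filter, as did 7 of 8 neuronal markers. In contrast 2 of 7 markers of ciliated sensory neurons and 1 of 6 sperm markers did. The body wall muscle markers were lower in the double mutant, with a summed signal of 993 to 1173 against 1297 to 1731 on the other 4 arrays and median log2 ratios of -0.61 to -0.37. So were the hypodermis markers, of which 4 of 6 passed the filter, with a summed signal of 564 to 749 against 829 to 955 and median log2 ratios of -0.37 to -0.06. The germline and oocyte markers were slightly lower too, at 14735 to 14998 against 15297 to 15835, with median log2 ratios of -0.17 to -0.09. Median ratios over all genes ran from -0.07 to -0.05. On the other lists the summed signals overlapped. The part of these shifts in the results below was not tested.

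The largest difference was that of bcf-1. Its signal was 2321 in N2, 1800 in N2 with octopamine, 2084 in daf-16, 2142 in daf-16 with octopamine, 20.0 in the double mutant and 14.2 in the double mutant with octopamine. The gene was bright on all 4 arrays of the other strains and close to the dim end of the signal range on both double mutant arrays. Its log2 ratios to N2 were -6.94 without and -7.02 with octopamine, and those to daf-16 were -6.74 and -7.27. The 4 arrays of the other strains spanned 0.46 on the same log2 scale. Between the geometric mean signals the ratio was 127, a size that is uncertain because 1 of the double mutant signals lay below the 15.5 at which the filter was set. In RNA from whole animals, fewer cells of a type and less RNA per cell cannot be told apart. The probe set carries the suffix _s, which marks probes that match more than 1 transcript.

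Its neighbour gfi-1 showed the opposite. The gfi-1 signal was 142 in N2, 113 in N2 with octopamine, 79.8 in daf-16, 106 in daf-16 with octopamine, 2395 in the double mutant and 1336 in the double mutant with octopamine. Every array of the other strains lay below both arrays of the double mutant, and the nearest of them were 3.11 apart on the log2 scale. The log2 ratios of gfi-1 to N2 were 4.00 without and 3.52 with octopamine, and those to daf-16 were 4.88 and 3.61. The geometric mean signals differed 16.01-fold. The other strains were less even for gfi-1 than for bcf-1: untreated daf-16 differed from untreated N2 by a log2 ratio of -0.88, and with octopamine by -0.09. The gfi-1 probe set also has the suffix _s.

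**Figure D1:**
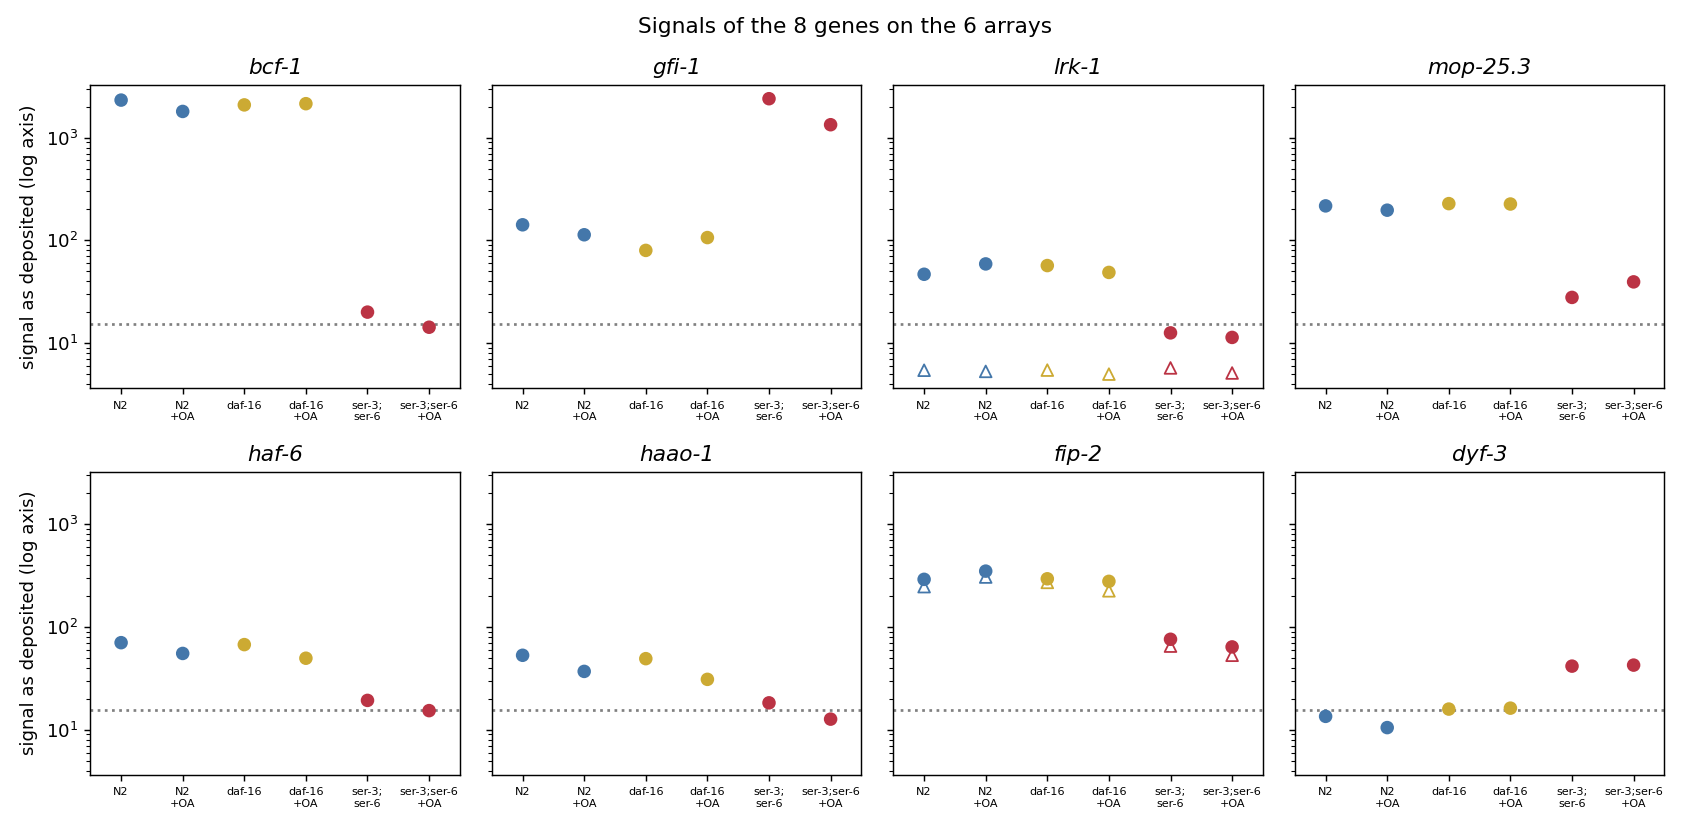
Signals as deposited (vertical log axis) of the 8 genes on the 6 arrays (horizontal axis; +OA, with octopamine). Filled circles are the probe set used, open triangles a second probe set of lrk-1 or fip-2, and the dotted line is the filter signal of 15.5. The red double mutant points of bcf-1 lie at 20.0 and 14.2 against 1800 to 2321 for the other strains, and those of gfi-1 at 2395 and 1336 against 79.8 to 142.

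The kinase gene lrk-1 and the scaffold gene mop-25.3 were both lower in the double mutant. The lrk-1 signal was 46.7 in N2, 58.9 in N2 with octopamine, 56.8 in daf-16, 48.7 in daf-16 with octopamine, 12.6 in the double mutant and 11.3 in the double mutant with octopamine. Both double mutant signals were below the filter signal, so the log2 ratios of -1.98 and -2.42 to N2 and of -2.21 and -2.14 to daf-16 are uncertain in size. A second lrk-1 probe set was dim on all 6 arrays, at 4.98 to 5.72, with overlapping strains, so the lrk-1 difference rests on 1 probe set, which has the suffix _s.

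For mop-25.3 the signal was 217 in N2, 197 in N2 with octopamine, 228 in daf-16, 226 in daf-16 with octopamine, 27.8 in the double mutant and 39.4 in the double mutant with octopamine. The other strains were close together, spanning 0.25 on the log2 scale, and both double mutant arrays were lower and above the filter signal. Log2 ratios of mop-25.3 were -3.04 and -2.36 to N2 and -3.07 and -2.56 to daf-16, without and with octopamine. The geometric means differed 6.76-fold, against 4.55-fold for lrk-1. The mop-25.3 probe set has no suffix that marks shared probes.

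The fungal-response family gene fip-2 was lower by both of its probe sets. On the brighter one the signal was 292 in N2, 351 in N2 with octopamine, 295 in daf-16, 279 in daf-16 with octopamine, 76.1 in the double mutant and 64.1 in the double mutant with octopamine. All 6 of these values were above the filter signal, and the nearest arrays of the double mutant and of the other strains were 1.87 apart on the log2 scale. The log2 ratios of fip-2 were -2.02 and -2.49 to N2 and -1.99 and -2.16 to daf-16, and on the other probe set they ranged from -2.57 to -2.0. Both fip-2 probe sets have the suffix _x, which marks probes that may also bind other sequences. These probe sets may share a target.

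The transporter gene haf-6 and the dioxygenase gene haao-1 were dimmer throughout. The haf-6 signal was 70.5 in N2, 55.4 in N2 with octopamine, 67.5 in daf-16, 49.7 in daf-16 with octopamine, 19.3 in the double mutant and 15.4 in the double mutant with octopamine. The haao-1 signal was 53.1 in N2, 37.0 in N2 with octopamine, 49.3 in daf-16, 31.0 in daf-16 with octopamine, 18.3 in the double mutant and 12.7 in the double mutant with octopamine. For both genes the double mutant lay below every other array, and within each strain the treated array lay below the untreated one. The log2 ratios of haf-6 to the other strains were -1.95 to -1.74 and those of haao-1 were -1.62 to -1.33. The haao-1 groups were the closest of the 8 genes, with 0.75 between the nearest arrays on the log2 scale, against 1.36 for haf-6.

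The cilium gene dyf-3 was the second gene that was higher. Its signal was 13.5 in N2, 10.5 in N2 with octopamine, 15.9 in daf-16, 16.2 in daf-16 with octopamine, 41.7 in the double mutant and 42.6 in the double mutant with octopamine. The other strains were at the dim end of the range, so dyf-3 passed the filter only through the double mutant. The log2 ratios of dyf-3 were 1.55 and 1.98 to N2 and 1.36 and 1.35 to daf-16. The nearest arrays were 1.34 apart on the log2 scale, and the probe set has the suffix _s.

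Set against the whole table, 2 of the 8 genes lay 2-fold or more above and 6 lay 2-fold or more below in all 4 ratios of the double mutant to another strain of the same treatment. Of all genes that passed the filter, 0.039% (4 genes) lay so far above and 0.185% (19 genes) so far below. These 4 ratios share arrays, and the genes were chosen on them, so nothing is read from that difference. Without a minimum distance, both double mutant arrays lay above the other 4 for 6.68% of all genes and below them for 12.8%. When a gap of at least 1 on the log2 scale between the nearest arrays was asked for, 0.0293% of all genes (3) were higher and 0.0878% (9) lower, and they included 7 of the 8, haao-1 being the exception. The gap of bcf-1, 6.48, ranked 1st among lower genes, followed by mop-25.3, lrk-1 and fip-2 at ranks 2 to 4 and haf-6 at rank 6, while haao-1 was at rank 14. The order of lrk-1 is uncertain because its double mutant signals were below the filter signal: with such signals raised to it, the lrk-1 gap of 1.95 became 1.64, below the 1.87 of fip-2. Upward gfi-1 ranked 1st and dyf-3 ranked 3rd, with C55C3.3, a gene outside the 8, between them at a gap of 1.75. Downward, the genes outside the 8 with a gap of at least 1 included Y110A2AL.9 (1.65), C14C6.5 (1.23) and C54D10.3 (1.05). The same gap set 0 genes apart upward and 0 downward for the N2 arrays, and 2 upward (0.0195%) and 3 downward (0.0293%) for the daf-16 arrays. Just inside that gap was the uncharacterised gene R03G8.6 at 1.00 and just outside it sshk-1 at 0.97, both lower.

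**Figure D2:**
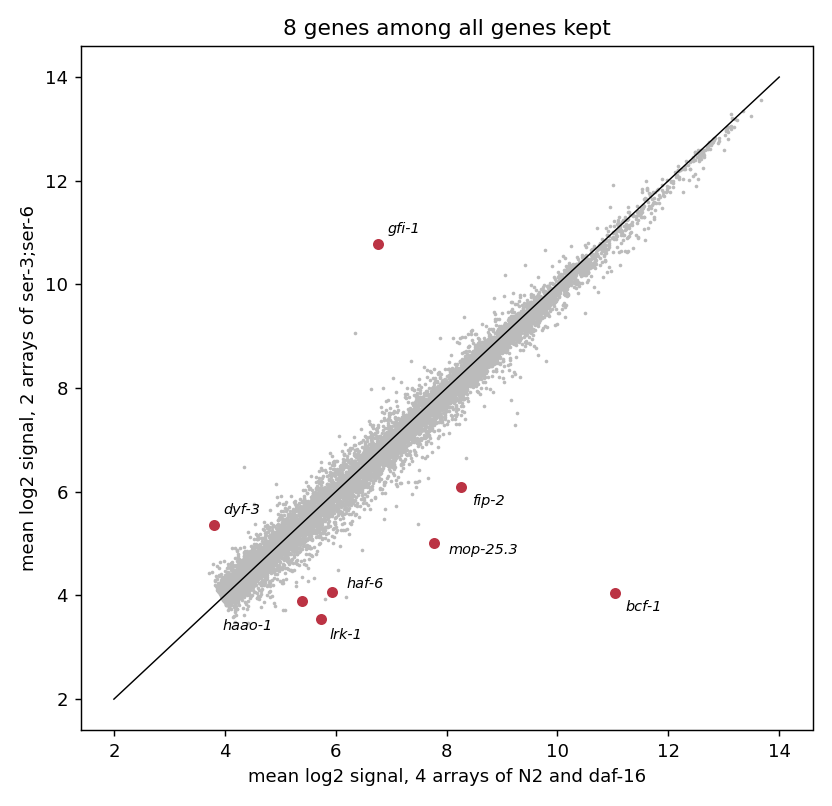
Mean log2 signal on the 2 double mutant arrays (vertical) against the mean on the 4 arrays of N2 and daf-16 (horizontal) for the 10251 genes that passed the filter, after median scaling; the line marks equal means. The 8 genes, in red, lie away from the line, with bcf-1 at 11.04 and 4.05 and gfi-1 at 6.77 and 10.77.

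The daf-16 mutant differed little from N2 for most of these genes. The choice asked for distance from both other strains, which favours genes on which N2 and daf-16 agree. Few of all genes reached 2-fold either, so nothing about the 8 is read from this. Across the 8 genes the log2 ratio of daf-16 to N2 ran from -0.88, for untreated gfi-1, to 0.63, for treated dyf-3. Of the 16 such ratios none reached 2-fold, where 0.0488% of all genes did so upward and 0.341% downward without octopamine, and 0.078% and 0.312% with it. For bcf-1 the ratios were -0.20 and 0.25, and for mop-25.3 they were 0.03 and 0.20.

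**Figure D3:**
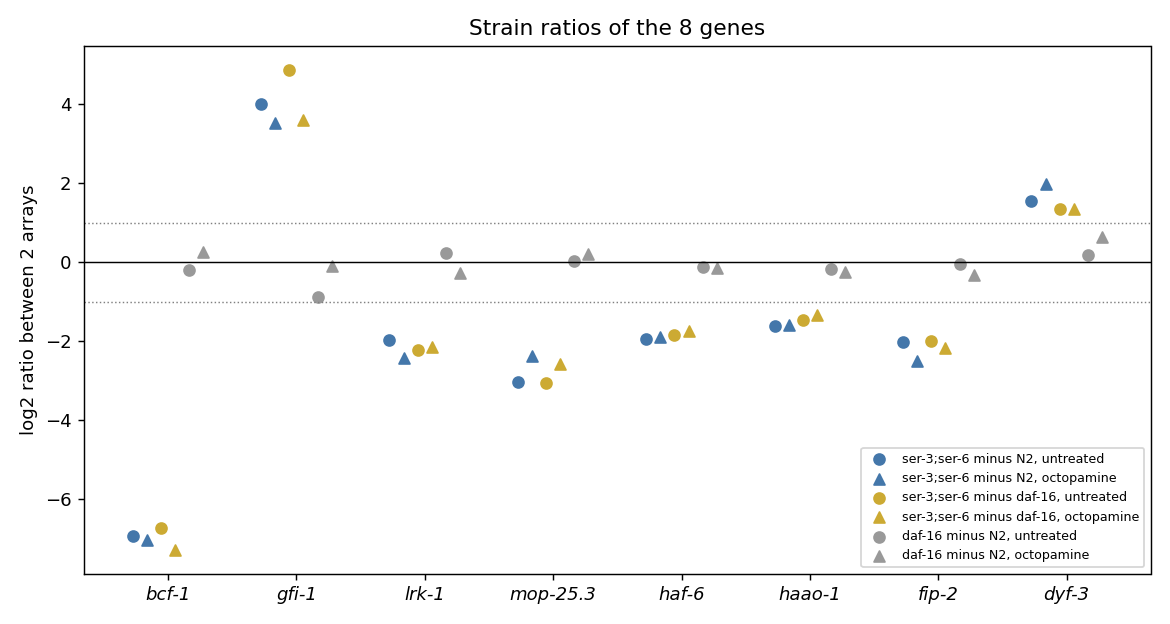
Log2 ratios between arrays of the same treatment (vertical) for the 8 genes (horizontal); circles are untreated and triangles octopamine-treated arrays, and dotted lines mark 2-fold. The blue and yellow double mutant ratios all lie beyond 2-fold, from -7.27 for bcf-1 to 4.88 for gfi-1, and the grey ratios of daf-16 to N2 lie between -0.88 and 0.63.

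In the current gene order gfi-1 and bcf-1 are adjacent on chromosome V, and their annotated spans do not overlap. The other measured genes within 5 places were unlike them. Next to bcf-1, the chitinase-family gene cht-6 had signals of 29.2 and 36.03 for N2, 23.9 and 33.3 for daf-16, and 32.1 and 31.1 for the double mutant, with overlapping strains. The ATP synthase gene atp-4, 4 places from bcf-1, had log2 ratios of -0.06 to -0.02 in the double mutant. On the far side of gfi-1 the gene cest-33, 4 places away, had ratios of 0.07 to 0.38, while the 3 genes between lay below the filter. Among the 7 genes around bcf-1 that passed the filter, gfi-1 was the only one 2-fold or more from both other strains in both treatments. It was chosen for that difference. Of all genes 0.039% lay so far above and 0.185% so far below.

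The genes lrk-1 and mop-25.3 are neighbours on chromosome I, where the annotated span of mop-25.3 lies inside that of lrk-1. Whether their probe sets read separate RNAs was not tested. Of the other genes within 5 places of lrk-1, 4 were measured and all lay below the filter, so no strain difference could be read from them. In that order, lrk-1 and mop-25.3 lie 27 and 28 protein-coding genes from daf-16 and 912 and 913 from ser-3. Both genes passed the filter in 6190 pairs of adjacent protein-coding genes, and in 2 pairs both genes had a gap of at least 1. These were lrk-1 with mop-25.3, in the same direction, and gfi-1 with bcf-1, in opposite directions, the pairs that were chosen here.

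**Figure D4:**
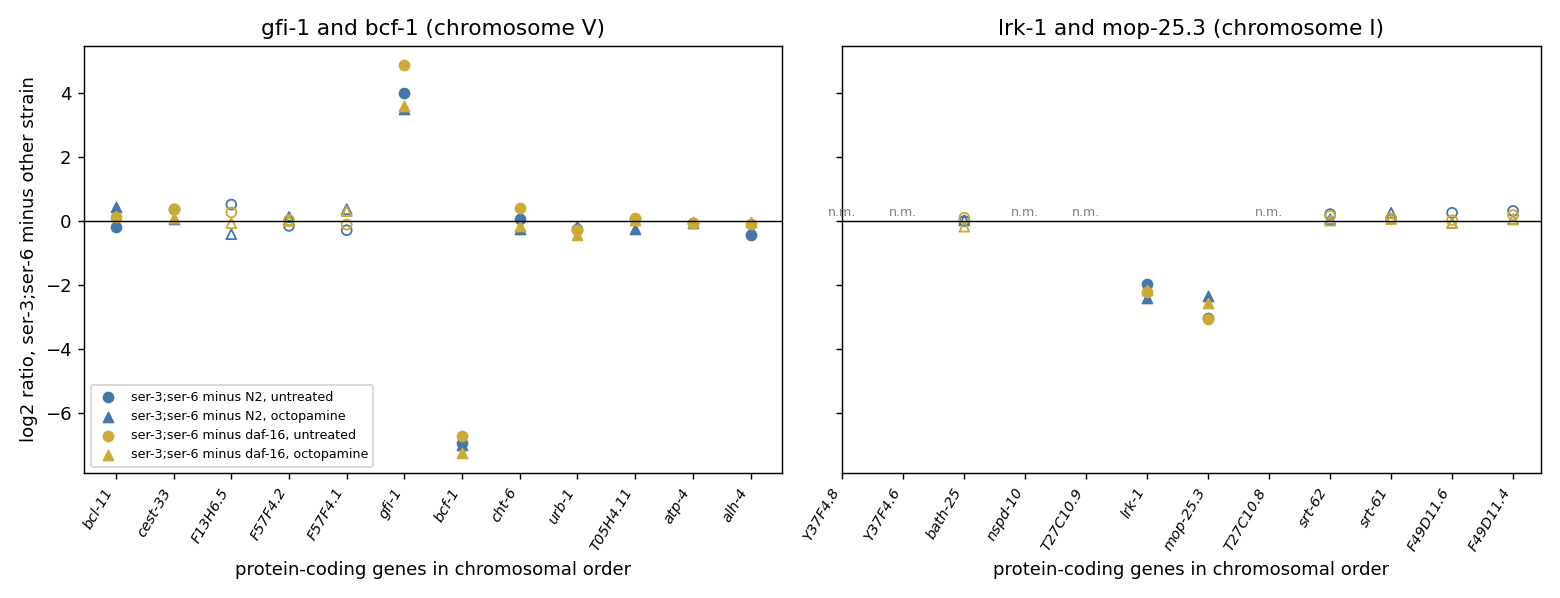
Log2 ratios of the double mutant to another strain (vertical) for protein-coding genes in chromosomal order (horizontal) around gfi-1 and bcf-1 (left) and around lrk-1 and mop-25.3 (right). Open symbols are genes below the filter and n.m. marks genes that were not measured. In the left panel gfi-1 lies at 3.52 to 4.88 and bcf-1 at -7.27 to -6.74, and in the right panel lrk-1 lies at -2.42 to -1.98 and mop-25.3 at -3.07 to -2.36.

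The neighbours of the remaining 4 genes were read in the same way. Of all genes that passed the filter, 0.039% lay 2-fold or more above and 0.185% below in all 4 ratios. Finding none near a gene is close to those shares, so nothing is read from it. None of the 5 measured neighbours of haf-6 that passed the filter, on chromosome I, was 2-fold from both other strains in both treatments, and their ratios ran from -0.29 to 0.31. The same held for the 7 neighbours of haao-1 on chromosome V, at -0.76 to 0.56, and for the 4 of dyf-3 on chromosome IV, at -0.41 to 0.45. Near fip-2, on chromosome V, 3 neighbours passed, and the lowest ratio was that of C25E10.10, which was -1.48 to N2 and -1.23 to daf-16 with octopamine but 0.01 and -0.09 without it. The gene dyf-3 lies 56 protein-coding genes from ser-6. It was the only gene with a gap of at least 1 among 191 that passed the filter within 200 places of ser-6, and of 257 within 200 places of ser-3 none had one. Of all genes 0.0293% had such a gap upward and 0.0878% downward. As dyf-3 was chosen for its gap and passed the filter only through the double mutant, nothing is read from its place. By chromosome, 0.172% of genes on I, 0.0556% on II, 0% on III, 0.121% on IV, 0.265% on V and 0.0679% on X had such a gap.

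The genes most like each of the 8 were often others of the 8, which follows from how they were chosen. Likeness was the root mean square difference of log2 signals over the 6 arrays, each gene centred on its mean. The closest pair was lrk-1 and fip-2, at 0.08, and haf-6 and haao-1 were 0.20 apart. Among genes outside the 8, F35C12.3 was nearest to haao-1, at 0.11, with signals of 42.8 and 27.3 for N2, 41.7 and 23.1 for daf-16, and 16.96 and 10.8 for the double mutant. Nearest to dyf-3 was C55C3.3, at 0.39, with signals of 20.9 and 21 for N2, 19.5 and 19.5 for daf-16, and 108 and 76.9 for the double mutant. It was also nearest to gfi-1, but at 0.91, and Y110A2AL.9 was among the nearest 3 of bcf-1, lrk-1, mop-25.3 and fip-2. No gene was close to bcf-1, whose nearest, mop-25.3, was 2.02 away.

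No octopamine change was asked for in the choice of these genes, but the choice was not independent of octopamine. It used treated and untreated arrays together, and a large octopamine change within a strain can narrow the distance between strains. Such genes were therefore less likely to be chosen. The octopamine effect was fitted on the same arrays, over the 3 strains, with an additive model of strain and octopamine. By limma with Benjamini-Hochberg adjustment over all 10251 genes, 0 of the 8 rose and 2 fell, against 7.37% and 14.7% of all genes (755 and 1511 genes, or 972 and 877 after quantile normalization). At an unadjusted p under 0.05 there were 3 of 8, against 36.7% of all genes. The count of 2 is near that background and is no result about the 8 as a set.

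The 2 that fell were haao-1 and haf-6. By limma with Benjamini-Hochberg adjustment haao-1 changed by -0.63 ± 0.11 (log2, SE, adjusted p = 0.00685), and its ratios were -0.61 for N2, -0.71 for daf-16 and -0.58 for the double mutant, lower in 3 of 3 strains. Over 8 alternatives its adjusted p by limma ran from 0.00519 to 0.0300. By the same limma test haf-6 changed by -0.43 ± 0.11 (SE, adjusted p = 0.0272), with ratios of -0.44, -0.48 and -0.38, lower in 3 of 3 strains. Both genes thus had a ratio of similar size in each strain, including the double mutant, where their signals were lowest and in part below the filter signal. The haf-6 call was lost without the N2 arrays (adjusted p = 0.114 by limma) and without the daf-16 arrays (adjusted p = 0.118 by limma), and its adjusted p over 8 alternatives ran from 0.0192 to 0.118.

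For bcf-1 and gfi-1 the strains differed in their octopamine ratio. For bcf-1 the ratio was -0.46 for N2, 0.0012 for daf-16 and -0.54 for the double mutant, and the fitted change of -0.33 ± 0.11 did not pass (limma, Benjamini-Hochberg adjusted p = 0.0704). The gfi-1 ratio was -0.41 for N2, 0.38 for daf-16 and -0.89 for the double mutant, and its fitted change of -0.31 ± 0.20 did not pass either (adjusted p = 0.299 by limma). Without the daf-16 arrays both passed, at -0.50 ± 0.16 for bcf-1 (adjusted p = 0.0248 by limma) and -0.65 ± 0.14 for gfi-1 (adjusted p = 0.00060 by limma). Over 9 alternatives the adjusted p by limma ran from 0.0248 to 0.311 for bcf-1 and from 0.00060 to 0.953 for gfi-1. The double mutant ratio of bcf-1 came from signals of 20.0 and 14.2, of which 1 lay below the filter signal. The bcf-1 change fitted without the daf-16 arrays rests on that ratio and the N2 ratio. The gfi-1 change fitted without them rests on the ratios of -0.41 and -0.89 and leaves out the only positive one. Without the double mutant arrays the fitted gfi-1 change was -0.017. With a pseudocount of 16 the bcf-1 change fitted over the 3 strains was -0.23. With 1 array per group a difference between strains in the octopamine change could not be tested.

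The other 4 genes did not pass. The octopamine ratios of mop-25.3 ran -0.23, -0.05 and 0.45 over N2, daf-16 and the double mutant, and those of lrk-1 were 0.25, -0.26 and -0.20. The ratios of fip-2 were 0.18, -0.12 and -0.30, and those of dyf-3 were -0.45, -0.01 and -0.02. Their adjusted p-values by limma lay between 0.399 for dyf-3 and 0.796 for mop-25.3.

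**Figure D5:**
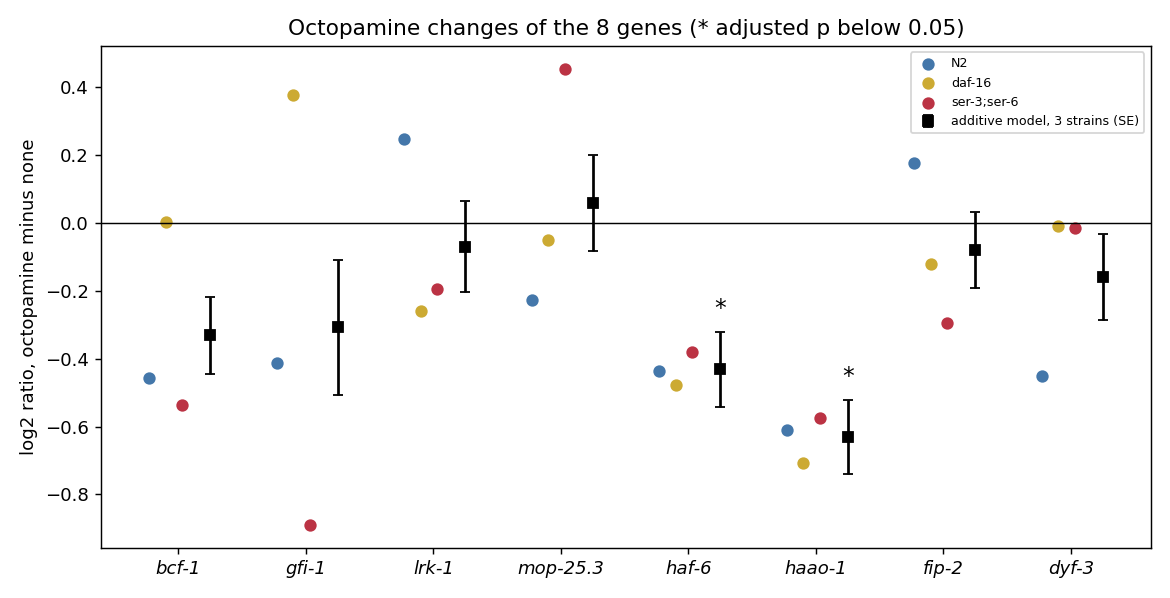
Log2 ratio of octopamine-treated to untreated arrays (vertical) of the 8 genes (horizontal) in each strain, with the change fitted over the 3 strains and its SE in black. The 3 strains lie close together for haao-1 (-0.71 to -0.58) and haf-6 (-0.48 to -0.38), and apart for gfi-1 (-0.89 to 0.38).

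Pathway relatives of the 8 genes were set side by side with them in the double mutant. In 8 lists of related genes, 109 genes other than the 8 passed the filter, and 0 of them lay 2-fold or more above and 0 lay 2-fold or more below in all 4 ratios. Of all genes that passed, 0.039% lay so far above and 0.185% so far below. The counts of 0 are near those shares and are no result about the lists. In the kynurenine pathway kynu-1, whose enzyme makes hydroxyanthranilic acid, the substrate of HAAO-1, had the lowest mean of the 4 ratios, although nkat-3 was lower in both treated ones. Its signal was 598 and 496 for N2, 672 and 448 for daf-16, and 368 and 345 for the double mutant, which was below the other strains in each treatment. Its log2 ratios were -0.90 to -0.42. The list's median ratios ran from -0.36 to -0.10, where those of all genes ran from -0.07 to -0.05. The first enzyme of the pathway, tdo-2, had ratios of -0.44 to -0.18.

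Among 14 other genes of intraflagellar transport and the cilium that passed the filter, 0 were 2-fold apart in all 4 ratios. That is near the share of all genes, and dyf-3 was chosen for such a difference, so nothing is read from the contrast. Their median ratios in the double mutant were 0.04 to 0.15, and the highest mean ratio was that of the dynein heavy chain che-3, 0.28. The transport protein gene osm-6 had signals of 16.8 to 18.2 on all 6 arrays, close to the filter signal. For the MO25 family, mop-25.2 had signals of 262 and 225 for N2, 257 and 216 for daf-16, and 255 and 314 for the double mutant, and mop-25.1 was at 18.1 to 19.7 on all arrays. Neither was 2-fold apart in any ratio. The kinase gene par-4, the worm LKB1, had ratios of -0.45 to -0.21.

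Further lists gave the same counts of 0, again near the share of all genes. Of 5 other haf genes that passed, the mean ratios ran from -0.22 for haf-2 to 0.08 for haf-4. Of 34 other genes of RNA interference, the lowest mean ratio was that of the RNA-dependent RNA polymerase gene rrf-3, -0.43, and the highest that of its relative rrf-2, 0.56. Of the fip and fipr genes only 5 others passed, and fipr-21 came nearest to fip-2, with signals of 432 and 635 for N2, 469 and 547 for daf-16, and 237 and 380 for the double mutant. Its ratios of -1.02 to -0.57 were smaller than those of fip-2. GEI-4, the partner for which gfi-1 is named, had gei-4 ratios of -0.17 to 0.31.

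With octopamine, 8 of the 109 list genes rose and 12 fell by limma with Benjamini-Hochberg adjustment, 18.3% together against 22.1% of all genes. In the kynurenine list 2 of 8 fell along with haao-1, and 1 rose. The gene acsd-1, whose enzyme acts on the product of HAAO-1, changed by -1.26 ± 0.17 and kynu-1 by -0.37 ± 0.10, while tatn-1, an enzyme of tyrosine breakdown, rose by 0.90 ± 0.16. The haf list had 1 of 5 falling, haf-9 at -0.49 ± 0.12, and 0 rising. Of the RNA interference genes 5 of 34 fell, among them rde-2 at -0.45 ± 0.09, rde-8 at -0.43 ± 0.11 and nrde-4 at -0.41 ± 0.11, and rrf-2 rose by 0.65 ± 0.11. The cilium list had 2 of 14 rising, the kinesin gene klp-11 at 0.87 ± 0.14 and dyf-7 at 0.63 ± 0.13, and 0 falling. In the list of MO25, LKB1 and AMPK genes aakg-1, a subunit of AMP-activated kinase, fell at -0.91 ± 0.15 and sax-1 rose by 0.39 ± 0.09, of 15. In that of LRRK, Parkin and the AP-3 complex the Parkin gene pdr-1 fell at -0.42 ± 0.08 and the lysosomal membrane gene lmp-1 rose by 0.41 ± 0.08, of 14. Of the 14 chromatin and GEI-4 genes swsn-4 and snfc-5 fell, at -0.39 ± 0.10 and -0.38 ± 0.08. Of the fip and fipr genes fipr-21 and fipr-24 rose, by 0.43 ± 0.10 and 0.67 ± 0.17. Counts depended on scaling: after quantile normalization 14 list genes rose and 5 fell. They also depended on the arrays used, with 4 rising and 5 falling without the N2 arrays, 13 rising without the double mutant arrays and 7 falling without the daf-16 arrays.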

How the data were processed

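Total RNA from whole animals was labelled with biotin and hybridised to single-colour arrays, per the labels' protocols. The authors deposited a linear intensity for each probe set on each array. The sources used here do not give the genome build or the way in which probes were summarised and arrays normalised. Of 22625 probe sets, 77 controls were left out; 20766 named 1 gene in the platform annotation and 887 several, which were not assigned. Entrez identifiers matched 20701 to the RefSeq gene table of WBcel235, used for names and gene order only.

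Intensities were log2 transformed without a pseudocount and each array's median was subtracted, since medians spanned 0.13. A gene with several probe sets was read from the brightest. Genes were kept at or above the 40th percentile of mean signal, 15.5. limma 3.58.1 (R 4.3.3) fitted strain plus octopamine with a trend, 2 residual and 6.28 prior degrees of freedom, and a threshold of 0.05. In a test on simulated data for octopamine over 3 strains with 10251 genes, it recovered 74.9% of changes of 0.5 (log2), 100% of changes of 1 and 2, and 6.24% of its calls were false. The simulation changed 200 genes, equally in each strain, with independent normal noise. In the real data 22.1% of genes were called and strains could differ, so these rates may not hold there. Python 3.11.15 did the rest.

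The 8 genes, the lists and the tests were chosen with earlier results of these data known. Genes were drawn from fixed groups, and not every gene of a group is named. The groups were the 8 and their probe sets, neighbours within 5 places and the 3 genes most like each. Further groups were the 10 largest gaps in each direction, and list genes past the threshold or 2-fold in all 4 ratios. Other list genes named were chosen after their values were seen. The motif search that had been planned was not run.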

Additional observations from a re-analysis of the deposited data

Results flagged for a closer look

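For 5 of the 8 genes the octopamine ratio had opposite signs in different strains. The share of all genes with such mixed signs was not counted, so nothing is read from the 5. For bcf-1 the daf-16 ratio was 0.0012, which is close to no change. The double mutant signals of bcf-1 lay in part, and those of lrk-1 wholly, below the filter signal. The highest and lowest strain differed by 0.54 on the log2 scale for bcf-1 (daf-16 against the double mutant), by 1.27 for gfi-1 (daf-16 against the double mutant) and by 0.51 for lrk-1 (N2 against daf-16). They differed by 0.68 for mop-25.3 (the double mutant against N2) and by 0.47 for fip-2 (N2 against the double mutant). These differences were not tested, as each strain has 1 pair of arrays.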

How the results depend on the processing

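The direction of the double mutant difference was kept by the probe set used of all 8 genes with values as deposited, quantile normalization, a pseudocount of 16 and a floor at the 40th percentile. With the pseudocount 1 of the 8, not 2, was at least 2-fold higher in all 4 ratios, and 1 of the 8 higher with a gap of at least 1. On the lower side 5, not 6, were at least 2-fold lower in all 4 ratios, with the pseudocount and also with the floor. With the pseudocount 4, not 5, were lower with a gap of at least 1. The haf-6 gap then became 0.89, from 1.36, and its mean ratio -1.23, from -1.85. The mean of the 4 ratios of haao-1 became -0.91, from -1.50, that of dyf-3 0.93, from 1.56, that of bcf-1 -6.02, from -6.99, and that of lrk-1 -1.32, from -2.19. The second lrk-1 probe set had a mean ratio of -0.016 and a gap of -0.21, that is, overlapping strains. With the filter at the 60th percentile, which keeps 4 of the 8, 1 gene overall was higher and 5 lower with a gap of at least 1. At that filter 0 of the 8 fell with octopamine, but haf-6 and haao-1 were not kept there and so were not tested. Without the N2 arrays 1 of the 8 fell. Signs turned for fitted changes that did not pass: lrk-1 at 0.025 without the daf-16 arrays, mop-25.3 at -0.14 without the double mutant arrays, and fip-2 at 0.037 after quantile normalization and 0.028 without the double mutant arrays. Of all genes 322 rose and 729 fell without the N2 arrays, and 1004 fell with values as deposited and 877 after quantile normalization. In the lists 14 rose and 5 fell after quantile normalization, 4 and 5 without the N2 arrays, 13 rose without the double mutant arrays and 7 fell without the daf-16 arrays. Apart from the loss of haf-6 and haao-1 at the stricter filter, the cause of these shifts was not tested. With replicate number as a block, no paired analysis was possible because only 1 such number exists; the additive model itself pairs the treated and untreated arrays of each strain. Dim signals limit the ratios of lrk-1, haao-1, haf-6, bcf-1 and dyf-3.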
